A study of Mus musculus with 6 samples.

Results

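The microRNAs of the imprinted Gnas and Mest loci were mmu-miR-296 and mmu-miR-298, which lie beside each other near Gnas, and mmu-miR-335, which lies within Mest. They are called miR-296, miR-298 and miR-335 from here on. They were the probes whose description names one of these 3 microRNAs, and they made up 3 of the 334 mouse microRNA probes in the files. They were measured in mouse embryoid bodies, aggregates in which embryonic stem cells start to differentiate, collected on day 7. The RQ group carried human BRCA1 with the missense change R1699Q, the MI group carried it with M1652I, and the WT group carried the wild-type human gene, with 2 arrays per group. All groups had the strain background 129S7/SvEv Brd-Hprt b-m2, and feeder cells were taken out on gelatin before the bodies formed. The labels do not say whether the mouse's own Brca1 was present or how many stem cell clones were used.

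Each array had 2 colours, with the group's own RNA in Cy3 and RNA of wild-type embryoid bodies in Cy5, per the labels. The labels call the arrays of a group biological replicates without saying whether they came from separate cultures, so the p-values reflect how far these arrays vary, and that variation may be technical. On the slide, row 1 held both WT arrays and row 2 the 4 mutant arrays, so genotype and slide row cannot be told apart when a mutant is set against WT, and the RQ arrays alone sat in columns 3 and 4, so in RQ minus MI genotype and slide column cannot be told apart. The negative control spots were brighter in Cy3 on the RQ arrays, with mean net signals of 93.05 and 102.8, against 43.79 to 59.44 on the MI and WT arrays. The median net Cy3 over probes was 260 and 230.5 on the RQ arrays and 169 to 243 on the others, so it overlapped. Of 12 stem cell markers, 10 to 11 were well above background in Cy3 on each array, and 2 to 5 in Cy5. Well above background in Cy3 on each array were also 7 of 7 markers of mesenchymal cells and feeder fibroblasts, 3 to 4 of 5 of blood, 3 to 4 of 4 of neural cells, 2 to 3 of 4 of muscle and heart, and 1 to 2 of 4 of endoderm and liver. On WT replicate 1 the stem cell markers summed to a net signal of 89135 in Cy3 and 293 in Cy5. The other marker lists were brighter in Cy5 there, such as blood at 999 in Cy3 and 72617 in Cy5, and neural cells at 1037 and 12729. The dyes thus differed on an array whose labels name wild-type embryoid bodies in both. What RNA the Cy5 reference held was not tested.

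MicroRNAs pair with messenger RNAs through a short seed near their 5′ end and lower the output of those messages. An imprinted gene is read mainly from the copy inherited from one parent. Gnas encodes a G protein subunit within a complex imprinted locus, where miR-296 and miR-298 are reported to come from the paternal copy, and Mest is a paternally expressed gene of mesodermal tissue whose intron holds miR-335. In mouse embryonic stem cells miR-296 was reported to target Nanog, a transcription factor of the stem cell state. In mouse neuronal cells miR-298 was reported to target Bace1, and in human breast cancer cells miR-335 was reported to limit metastasis and to target SOX4 and tenascin C.

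The mature forms read by the probes are shown because their seeds set what each microRNA can pair with, and the seed, bases 2 to 8, is in capitals. All are 5p arms, and the sequences are those of RefSeq for GRCm38.p6.
miR-335: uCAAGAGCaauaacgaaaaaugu
miR-298: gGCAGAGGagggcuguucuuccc
miR-296: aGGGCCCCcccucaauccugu
None of these seeds is shared with another mouse microRNA of the RefSeq table, where each had 0 matches, so the neighbours miR-296 and miR-298 do not form a seed family. The mature miR-335 lies on the plus strand at chr6:30741314-30741336, within the span of Mest. The mature miR-298 lies on the minus strand at chr2:174267553-174267575, and the mature miR-296 on the same strand at chr2:174267093-174267113. No gene of the RefSeq table spans either, and their nearest genes are Gnasas1, an antisense RNA of the Gnas locus, and Gnas on the side of higher coordinates. The hairpins of miR-296 and miR-298 are 378 bases apart. Guanine and cytosine make up 30.4% of the bases of miR-335, 65.2% of miR-298 and 66.7% of miR-296.

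The array probes are shown because they decide which bases were measured, and capitals mark the part complementary to the mature microRNA. The last 33 bases are a stem common to the mouse probes, and the few lower-case bases before it join the stem to the complement.
miR-335 probe: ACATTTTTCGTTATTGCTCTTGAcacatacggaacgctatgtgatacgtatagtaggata
miR-298 probe: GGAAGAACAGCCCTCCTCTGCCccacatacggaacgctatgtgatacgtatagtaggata
miR-296 probe: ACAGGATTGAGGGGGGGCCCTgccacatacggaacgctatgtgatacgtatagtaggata
The miR-335 probe covers all 23 bases of its microRNA, the miR-296 probe all 21, and the miR-298 probe 22 of 23, leaving out the last base. Probes were compared without the stem, over 27 bases that still include the joining bases, so a shared run may hold some of these. The probe closest to that of miR-335 was that of miR-130b, with a longest shared run of 5 bases. For miR-298 the closest was miR-714 and for miR-296 it was miR-133b, each with a shared run of 6 bases.

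All 24 spots of each of the 3 microRNAs were well above background in both dyes, and 0 were saturated. All 3 therefore passed the filter that left 294 probes for testing. On the log2 scale of Cy3 over Cy5 after loess normalisation, 0 is the level that loess fitted for spots of like intensity, not equal signal in both dyes. On this scale miR-335 lay below 0 on all 6 arrays and the Gnas locus pair lay above 0 on all 6. Before normalisation, net Cy3 of miR-335 was above its net Cy5 on both RQ arrays, at 293 and 221 against 208 and 194. On the WT arrays, whose labels name wild-type embryoid bodies in both channels, the mean ratio was −1.23 ± 0.18 for miR-335, 2.30 ± 0.37 for miR-298 and 2.44 ± 0.27 for miR-296 (SD, n = 2). The mean net Cy3 signal on those arrays, before any normalisation, was 0.537 times the mean net Cy5 signal for miR-335, 3.997 times for miR-298 and 8.32 times for miR-296. On the MI and RQ arrays it was 0.650 and 1.28 times for miR-335, and 4.19 and 5.41 times for miR-298. For miR-296 it was 9.52 and 13.3 times. Before normalisation this ratio was thus highest in RQ for each of them.

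**Figure D1:**
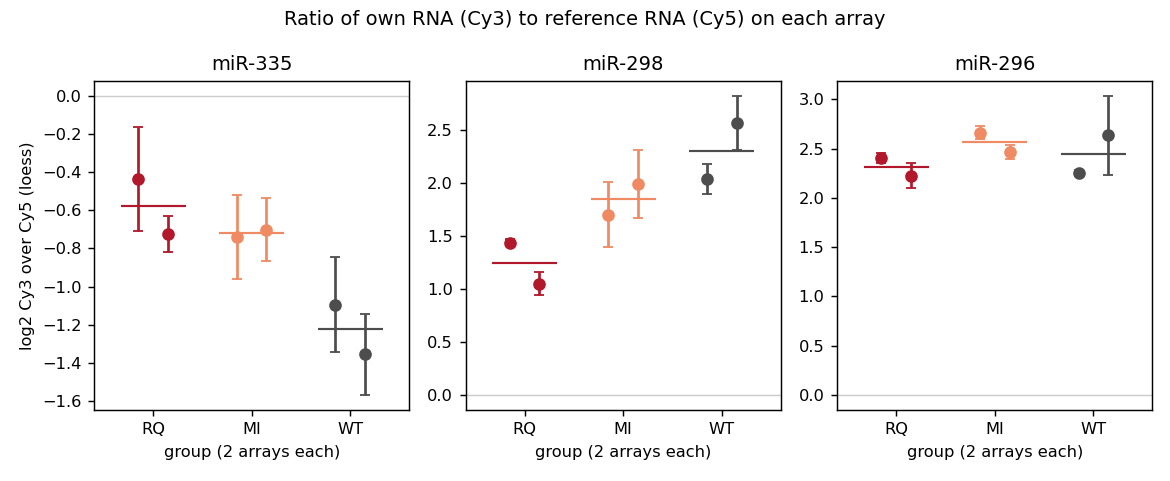
Log2 ratio of Cy3 over Cy5 for miR-335, miR-298 and miR-296 on each of the 6 arrays, by group. Points are arrays with the SD over their spots and lines are group means; the RQ arrays lie above both WT arrays for miR-335, below them for miR-298 and within their range or just under it for miR-296.

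The comparison of RQ with WT asks which microRNAs differ with the R1699Q change. Of the 3 microRNAs, miR-335 rose and miR-298 fell on the loess-normalised ratio, and miR-296 did not pass the test. A call here is an adjusted p under 0.05 in limma after Benjamini-Hochberg adjustment over the 294 probes, which 21.4% of all tested probes met, 7.48% as rises and 13.9% as falls. The median change over all tested probes was 0.03, and the median absolute change was 0.27. The ratios of RQ and WT arrays did not overlap for miR-335 and miR-298, as for 62.6% of all tested probes.

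For miR-335 the log2 ratio was −0.44 and −0.72 on the RQ arrays, −0.74 and −0.70 on the MI arrays, and −1.10 and −1.36 on the WT arrays. All 4 mutant arrays lay above both WT arrays, and RQ and MI overlapped. The rise in RQ over WT was 0.65 ± 0.15 (log2, SE; 95% interval 0.28 to 1.01; limma adjusted p = 0.0338), a ratio 1.56 times that of WT. In the ranking by p-value it stood at 45 of 294.

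The net Cy3 intensity of miR-335, the mean signal less the local background, was 293 and 221 on the RQ arrays, 132.5 and 166 on the MI arrays, and 182 and 103 on the WT arrays. The RQ arrays were above all others, and MI and WT overlapped. The single spots ran from 200 to 384 in RQ, from 116 to 172 in MI and from 89 to 267 in WT, so the brightest WT spot exceeded the dimmest RQ spot. Divided by the median net Cy3 of the tested probes on its array, miR-335 stood at 1.13 and 0.959 in RQ, 0.783 and 0.809 in MI, and 0.750 and 0.560 in WT. After this scaling RQ again lay above the other groups, and both MI arrays lay above both WT arrays. After the mean of the negative control spots was taken off, net Cy3 was 200 and 118 in RQ, 88.7 and 107 in MI, and 123 and 59.4 in WT. On that scale RQ and WT overlapped, since the dimmer RQ array was below the brighter WT array.

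The reference dye moved as well for miR-335. Its net Cy5 intensity was 208 and 194 on the RQ arrays, 219.5 and 239.5 on the MI arrays, and 279 and 252 on the WT arrays. The Cy5 values were lowest in RQ and highest in WT, with no overlap between groups, although the labels give the same kind of reference for all. In a fit of Cy5 alone, chosen after seeing the data, miR-335 was lower in RQ than in WT by −0.30 ± 0.05 (log2, SE; limma adjusted p = 0.0431), and 5.1% of probes were called. In Cy3 alone, where 21.8% of probes were called, the RQ minus WT difference was 0.37 ± 0.15 (limma adjusted p = 0.129). Cy3 alone therefore gave a difference of the same sign with no call. Neither the slide row nor the brightness of the RQ arrays was tested as a source of the change in ratio.

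The call for miR-335 in RQ was lost without WT replicate 2 (0.52, limma adjusted p = 0.0858), without RQ replicate 1 (0.50, limma adjusted p = 0.201), and without either MI replicate, which left the change at 0.65 and gave a limma adjusted p of 0.0682. It was also lost with loess fitted on bright probes (0.53, limma adjusted p = 0.0864) and with the scanner's processed signals (0.71, limma adjusted p = 0.139), and the direction held in all 18 alternatives.

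For miR-298 the log2 ratio was 1.44 and 1.05 on the RQ arrays, 1.70 and 1.99 on the MI arrays, and 2.04 and 2.57 on the WT arrays. The groups followed each other without overlap, with RQ lowest and WT highest. The RQ ratio fell by 1.06 ± 0.23 (log2, SE; 95% interval −1.62 to −0.49; limma adjusted p = 0.0255), to 0.480 times that of WT. With median centring of each array in place of loess, the sign turned, and RQ was higher than WT by 0.18 (limma adjusted p = 0.344).

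The raw signals of miR-298 did not show the fall. Net Cy3 was 8727 and 10155 on the RQ arrays, 6085 and 7892 on the MI arrays, and 7526 and 7063 on the WT arrays. Both RQ arrays were brighter than every MI and WT array, the opposite order to that of the loess ratio. Net Cy5 was 1491 and 1997 in RQ, 1520 and 1814 in MI, and 1983 and 1667 in WT, and the groups overlapped. Divided by the median net Cy3 of each array, miR-298 stood at 33.6 and 44.1 in RQ, 35.96 and 38.5 in MI, and 31.0 and 38.3 in WT. The 3 groups overlapped on that scale.

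In Cy3 alone, with quantile normalisation, miR-298 differed between RQ and WT by −0.14 ± 0.12 (log2, SE; limma adjusted p = 0.424). The scanner's processed signals gave −0.45 (limma adjusted p = 0.0900). The call was lost without WT replicate 2 (−0.79, limma adjusted p = 0.0600), without RQ replicate 1 (−1.25, limma adjusted p = 0.0836) and without RQ replicate 2 (−0.86, limma adjusted p = 0.117). The sign of the difference for miR-298 turned in 1 of the 18 alternatives, median centring. Its size and its call also moved with the processing.

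**Figure D2:**
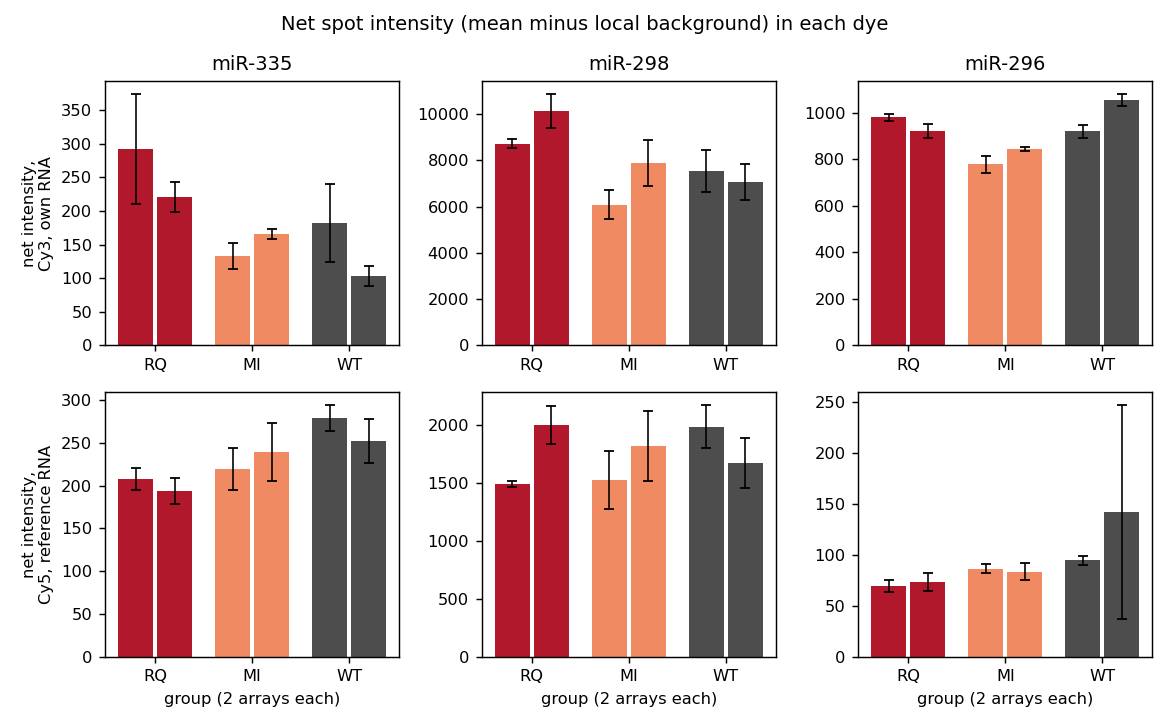
Net spot intensity in Cy3 (upper panels, own RNA) and Cy5 (lower panels, reference RNA) for the 3 microRNAs, with a bar per array in the order replicate 1, replicate 2 within each group and the SD over spots as error bar. The RQ bars are the tallest in Cy3 for miR-335 and miR-298, and the RQ bars are the shortest in Cy5 for miR-335.

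For miR-296 the log2 ratio was 2.40 and 2.23 on the RQ arrays, 2.66 and 2.46 on the MI arrays, and 2.25 and 2.63 on the WT arrays. The RQ and WT arrays overlapped, and MI lay above RQ. The RQ minus WT difference was −0.13 ± 0.17 (log2, SE; 95% interval −0.54 to 0.28; limma adjusted p = 0.601). The interval leaves room for a fall or a rise of the size seen in the median probe, 0.27. With median centring and without WT replicate 2 the difference turned to 0.06 in either case.

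Net Cy3 of miR-296 was 981 and 921.5 on the RQ arrays, 778 and 844 on the MI arrays, and 920 and 1055 on the WT arrays. The MI arrays were the dimmest, and RQ and WT lay at a like level. Net Cy5 was 69.5 and 73.2 in RQ, 86.7 and 83.7 in MI, and 95 and 142 in WT, again with the lowest values in RQ and no overlap between groups. Divided by the median net Cy5 of its array, miR-296 stood at 0.40 and 0.50 in RQ, 0.53 and 0.49 in MI, and 0.51 and 0.91 in WT. On that scale MI overlapped both other groups. The value of 142 comes from WT replicate 2, where 1 spot had a net Cy5 signal of 263 and carried no outlier mark. The other spots kept on that array were at 72 and 92. In Cy3 alone the RQ minus WT difference was −0.50 ± 0.21 (limma adjusted p = 0.142), and in Cy5 alone it was −0.47 ± 0.15 (limma adjusted p = 0.103).

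The comparison of MI with WT asks the same of the M1652I change, and it shares the WT arrays with RQ minus WT. None of the 3 microRNAs passed the test in limma, where 15.6% of tested probes were called, 9.18% as rises and 6.46% as falls, and 1 of the 3, miR-335, had an unadjusted p under 0.05, as had 36.7% of all tested probes. For miR-335 the difference was 0.50 ± 0.15 (log2, SE; 95% interval 0.14 to 0.87; limma adjusted p = 0.0734). With the median of a probe's spots, an alternative chosen after seeing the data, it was 0.59 and passed (limma adjusted p = 0.0420). It was 0.24 with median centring (limma adjusted p = 0.295) and 0.24 with processed signals (limma adjusted p = 0.621). In Cy3 alone, where 11.9% of probes were called, it was 0.12 ± 0.15 (limma adjusted p = 0.617), and the mean net Cy3 was 149 ± 24 in MI and 143 ± 56 in WT (SD, n = 2 each). The group means of net Cy3 for miR-335 thus lay closer than the spread within either group.

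For miR-298 the MI minus WT difference was −0.46 ± 0.23 (log2, SE; 95% interval −1.02 to 0.11; limma adjusted p = 0.206), and with median centring it turned to 0.10. It was −0.72 without WT replicate 1, −0.19 without WT replicate 2, −0.17 with loess on bright probes, −0.30 in Cy3 alone and −0.07 with processed signals. For miR-296 it was 0.12 ± 0.17 (95% interval −0.29 to 0.53; limma adjusted p = 0.615). That of miR-296 took a negative sign in Cy3 alone (−0.25), with loess on bright probes (−0.15), with processed signals (−0.14), with median centring (−0.02) and without WT replicate 1 (−0.07). No direction can be given for the Gnas locus pair in MI from these arrays. The MI and WT arrays did not overlap for miR-335 and miR-298, as for 68.4% of tested probes.

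The comparison of RQ with MI sets the mutants against each other within a slide row, with MI in columns 1 and 2 and RQ in columns 3 and 4, so that slide column and genotype cannot be told apart. None of the 3 microRNAs passed the test in limma, where 10.9% of tested probes were called, and 1 of the 3, miR-298, had an unadjusted p under 0.05, as had 26.5% of all tested probes. The difference was 0.14 ± 0.15 for miR-335 (log2, SE; 95% interval −0.23 to 0.51; limma adjusted p = 0.576). It was −0.60 ± 0.23 for miR-298 (95% interval −1.17 to −0.04; limma adjusted p = 0.162) and −0.25 ± 0.17 for miR-296 (95% interval −0.66 to 0.16; limma adjusted p = 0.398). With median centring these became 0.48 for miR-335, 0.08 for miR-298 and 0.07 for miR-296, so both Gnas locus microRNAs changed sign. Without RQ replicate 1 the difference of miR-335 was −0.003. In Cy3 alone, where 12.2% of probes were called, miR-298 was at 0.16 and no member was called. RQ and MI did not overlap for miR-298 and miR-296, as for 65% of tested probes.

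**Figure D3:**
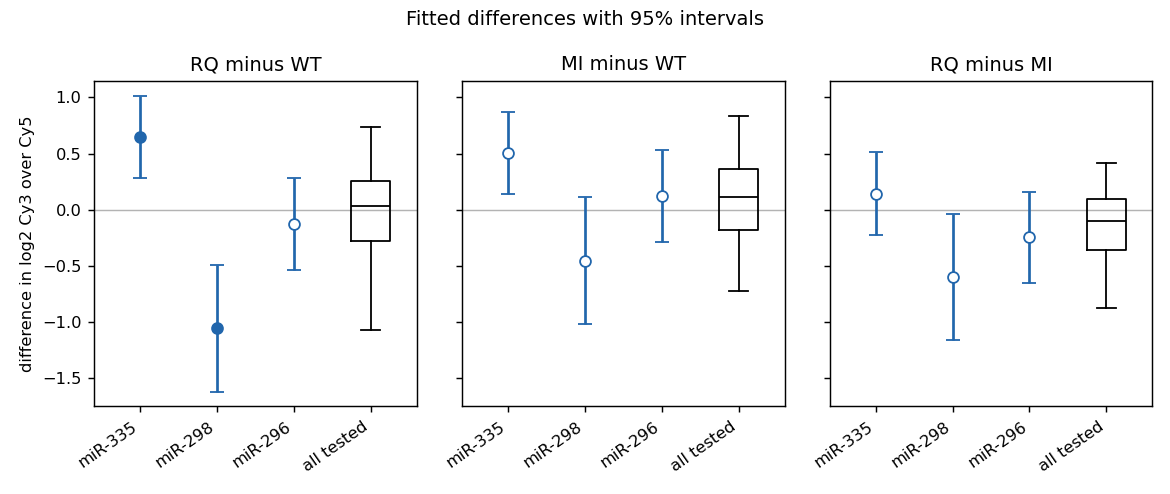
Fitted differences in log2 Cy3 over Cy5 for the 3 microRNAs in each comparison, with 95% intervals; filled points passed an adjusted p under 0.05. The box shows the quartiles and the median of the 294 tested probes, with whiskers at the 5th and 95th percentiles; miR-335 lies above 0 and miR-298 below it in RQ minus WT.

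Set side by side, the mutants differed from WT by 0.65 in RQ and 0.50 in MI for miR-335, by −1.06 in RQ and −0.46 in MI for miR-298, and by −0.13 in RQ and 0.12 in MI for miR-296. These pairs share the WT arrays and are given as values alone. Across the 6 arrays the log2 ratios of the neighbours miR-296 and miR-298 correlated at r = 0.54, those of miR-335 and miR-298 at r = −0.78, and those of miR-335 and miR-296 at r = −0.22. These are descriptions over 6 arrays that share a slide and a normalisation.

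**Figure D4:**
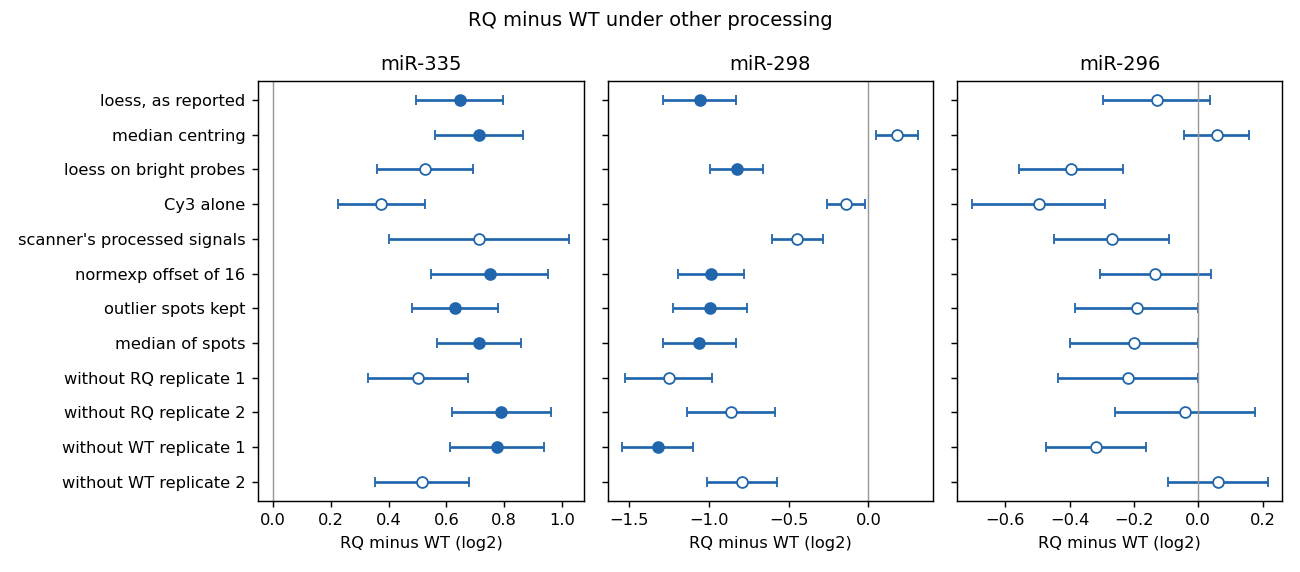
RQ minus WT difference (log2) of each microRNA under 12 ways of processing, with its SE; filled points passed an adjusted p under 0.05. The values of miR-335 run from 0.37 to 0.79, all above 0, those of miR-298 from −1.32 to 0.18, and those of miR-296 from −0.50 to 0.06.

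The 5 probes whose log2 ratios ran most like those of miR-335 over the 6 arrays were miR-205 (r = 0.99), miR-129-5p (0.95), miR-344 (0.95), miR-672 (0.94) and miR-670 (0.93). Probes like a member were picked over these same arrays, so a shared shift in RQ minus WT largely follows from that choice. Of the 5 like miR-335, miR-205, miR-672 and miR-670 were called higher in RQ minus WT, at 0.61, 0.98 and 0.48. Over all tested probes 7.48% were called as rises. All 3 were called again with median centring, at 0.46, 0.64 and 0.61. The call of miR-205 was lost with loess on bright probes (0.52), in Cy3 alone (0.10) and with processed signals (0.03), that of miR-672 in Cy3 alone (0.63) and with processed signals (0.30), and that of miR-670 with processed signals (0.51). The probe of miR-205, a microRNA of epithelial cells, read 0.30 and 0.13 in RQ, 0.10 and 0.05 in MI, and −0.29 and −0.51 in WT. The probes of miR-129-5p and miR-344 were well above background in Cy3 on 1 and 0 arrays. For miR-298 they were miR-451 (0.95), let-7a (0.94), miR-30c (0.93), miR-705 (0.93) and miR-130a (0.92), of which all but miR-705 were called lower in RQ, at −1.09, −1.02, −0.92 and −1.07. Falls were called for 13.9% of all tested probes. With median centring let-7a, miR-30c and miR-130a turned to 0.16, 0.23 and 0.21, as miR-298 did, and miR-451 was at −0.30 without a call. The miR-451 probe was saturated in Cy5 on all 6 arrays. For miR-296 they were miR-193 (0.86), miR-144 (0.86), miR-696 (0.85), miR-675-5p (0.84) and miR-30e (0.84), of which 0 were called in RQ minus WT by limma and 0 had an unadjusted p under 0.05. Over all tested probes 21.4% were called and 37.4% had such a p.

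Of 50 tested microRNAs of other imprinted loci, 6% were called in RQ minus WT, where 21.4% of all tested probes were, and 12% in MI minus WT, near the 15.6% of all tested probes. Near Igf2 and H19, a growth factor gene and its neighbouring noncoding RNA, miR-483 and miR-675-5p were not called in any comparison by limma, where 0 of the 2 had an unadjusted p under 0.05. In the Dlk1-Dio3 region, whose microRNAs are read from the maternal copy, 0 of 40 tested rose and 1 fell in RQ over WT, with a median change of −0.07. Against that count, 2 rose and 1 fell with median centring, 0 rose and 2 fell with loess on bright probes, 0 rose and 5 fell in Cy3 alone, and 0 rose and 4 fell with processed signals. On the loess ratio 5 of the 40 had an unadjusted p under 0.05, and 9 of the 40 had one in MI minus WT. Over all tested probes 37.4% had one in RQ minus WT and 36.7% in MI minus WT. The 1 called on the loess ratio was miR-299, at −0.63 ± 0.11 (limma adjusted p = 0.0121), which was also called lower in RQ with median centring, loess on bright probes, Cy3 alone and processed signals. In MI over WT 2 of the 40 rose, miR-543 and miR-665 at 0.58 each, and 2 fell, miR-299 at −0.45 and miR-127 at −0.44. Under those other 4 scalings miR-299 stayed called in MI, the rises of miR-543 and miR-665 were called in 0, and the fall of miR-127 in 2. In the Sfmbt2 intron, a paternally expressed locus in mouse, 2 of 8 tested fell in both mutants and 0 rose, miR-466 at −1.04 in RQ and −0.88 in MI, and miR-467* at −1.06 in RQ and −0.85 in MI. Both stayed called in both mutants under those 4 scalings. Of the 8, 2 in RQ minus WT and 3 in MI minus WT had an unadjusted p under 0.05, against the same 37.4% and 36.7% of all tested probes. The Sfmbt2 microRNAs belong to a large family of near-identical copies that a probe may not tell apart. In RQ minus MI limma called 0 members of these lists, where 10.9% of all tested probes were called. There 3 of the 40 of Dlk1-Dio3, 0 of the 8 of Sfmbt2 and 0 of the 2 near Igf2 had an unadjusted p under 0.05, against 26.5% of all tested probes. With median centring 1 of the 40 was called in RQ minus MI. Over all tested probes, 34.9% of the RQ minus WT calls were rises, against 70.1% with median centring and 23.3% with loess on bright probes. In MI minus WT 58.7% were rises, against 44.7% with median centring, 40% with loess on bright probes, 28.6% in Cy3 alone and 28.1% with processed signals.

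miR-134 and miR-470 were reported along with miR-296 to target stem cell transcription factors in mouse. The log2 ratio of miR-134 was 2.10 and 1.16 in RQ, 1.66 and 1.40 in MI, and 0.80 and 0.78 in WT. All mutant arrays lay above WT, yet neither RQ minus WT (0.84 ± 0.30, limma adjusted p = 0.0925) nor MI minus WT (0.74 ± 0.30, limma adjusted p = 0.132) passed the test. With median centring both passed, at 0.61 in RQ (limma adjusted p = 0.00927) and 0.49 in MI (limma adjusted p = 0.0296). On both RQ arrays miR-470 failed to stand well above background in Cy3. Its net Cy3 was 76.75 and 70 there, above the 59.5 and 51.5 on the WT arrays. After loess and Aquantile scaling across arrays its Cy3 was instead at least 1.13-fold lower in RQ than in WT. The ratio of miR-470 differed by −0.01 between RQ and WT (limma adjusted p = 0.944), so no direction is given. Its MI minus WT difference was 0.23 (limma adjusted p = 0.207).

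miR-206 and miR-126 were reported along with miR-335 to limit metastasis of human breast cancer cells. The log2 ratio of miR-206, a muscle microRNA close in sequence to miR-1, was 1.82 and 1.85 in RQ, 2.39 and 2.71 in MI, and 0.55 and 1.58 in WT. It rose in MI over WT by 1.49 ± 0.33 (limma adjusted p = 0.0340), a call lost under the other 4 scalings, where it was 0.81 to 1.43, and its RQ minus WT difference of 0.77 ± 0.33 did not pass (limma adjusted p = 0.142), though it passed with median centring at 0.87 (limma adjusted p = 0.0387). Of miR-126, only a probe for the 5p arm was among those analysed, so nothing is given for its other arm. The probe for miR-126-5p did not reach a signal well above background in the Cy3 channel of any array, so no fold is given.

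The median over probes of the ratio of RQ to the other arrays was 1.31 in net Cy3 and 0.863 in net Cy5. The summed Cy3 signal of most marker lists was higher in RQ as well. Over the 7 markers of mesenchymal cells and feeder fibroblasts, all above background on every array, net Cy3 summed to 4202 to 4562 in RQ, 2766 to 3540 in MI and 2188 to 3266 in WT. Over 4 muscle and heart markers, 2 to 3 of them above background, it summed to 2397 to 3291 in RQ, 1957 to 2787 in MI and 1194 to 1214 in WT. Over 4 neural markers it summed to 1508 to 1618 in RQ, 961 to 1120 in MI and 1001 to 1037 in WT, and over 4 endoderm and liver markers to 774 to 777 in RQ, 451 to 527 in MI and 417 to 443 in WT. These sums do not set one cell type apart. Over 5 blood markers it summed to 1183 to 1235 in RQ, 972 to 1101 in MI and 999 to 1043 in WT. Over the 12 stem cell markers it summed to 71552 to 74813 in RQ, 52722 to 66978 in MI and 52561 to 89135 in WT, so that RQ lay within the WT range. On the loess ratio in RQ minus WT, 0 of the 7 mesenchymal markers rose and 2 fell, and 0 of 4 muscle and heart markers rose and 1 fell. Of 11 tested stem cell markers 0 rose and 3 fell, and of 5 blood markers 1 rose and 1 fell. Among neural and among endoderm and liver markers 0 were called. Over all tested probes 7.48% rose and 13.9% fell. With median centring 1 rose and 0 fell in the mesenchymal, the muscle and heart, and the endoderm and liver lists. In the blood and neural lists 2 rose and 0 fell, and in the stem cell list 1 rose and 1 fell. Of all 294 probes 47 then rose and 20 fell. The part of other cell types in the change of miR-335 was not tested, and in these bulk samples fewer cells of a type and less RNA per cell cannot be told apart.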

How the data were processed

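MicroRNA signal was measured on 6 Agilent arrays of 2 colours. Per the file headers, the deposited scanner files came from Feature Extraction 9.5.1.1 and hold mean and background intensity per spot on a linear scale, and processed intensity that the scanner software had corrected and dye-normalised. Each file lists 1932 features, of which 1336 are spots of 334 mouse probes. The deposited value table equals minus the deposited log10 ratio per the file headers (largest difference 0), so its direction is Cy3 over Cy5. It was not used for tests.

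Intensities were corrected with normexp (offset 50) and loess-normalised within arrays in limma 3.58.1 under R 4.3.3, with control spots and spots marked as outliers given no weight. Marked spots, 60 to 99 per array, were dropped, and the others averaged per probe. Probes with over 0.5 of spots well above background in either dye on 2 or more arrays were tested (294). Group means on all 6 arrays were compared with lmFit and eBayes, two-sided (3 residual and 2.99 prior degrees of freedom). The number of arrays limits precision. In simulated data for the RQ minus WT comparison (294 probes), 75.2% of changes of 0.7 and 99.3% of changes of 1.5 (log2) were recovered over 5 draws, and 7.86% of calls were false. The simulated arrays were built from ratios already loess-normalised, with no dye bias and no brighter RQ arrays. These rates therefore leave out errors from bringing the dyes to one scale. A bound on a fold for a probe not above background is on Cy3 after loess and Aquantile and is open to dye bias.

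The members and lists were chosen with earlier results of these data known. Named microRNAs were the 3 members, the 5 probes most like each over the arrays, the closest probe by sequence, miR-134, miR-470, miR-126 and miR-206, and up to 4 called members per list of other imprinted loci.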

Additional observations from a re-analysis of the deposited data

How the results depend on the processing

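Each difference was recomputed under 18 alternatives, of which the median of spots and the subtraction of the negative-control level were chosen after seeing the data. The median of all tested probes in RQ minus WT moved from 0.03 to −0.26 with processed signals, −0.12 with loess on bright probes and −0.10 in Cy3 alone, and relative to it miR-335 stood at 0.61 as reported, 0.98 with processed signals, 0.65 with loess on bright probes and 0.47 in Cy3 alone, and miR-298 at −1.09, −0.18, −0.70 and −0.045 under the same 4. miR-335 in RQ minus WT kept its direction in all 18 and its call in 10; it was 0.53 with loess on bright probes, 0.37 in Cy3 alone, 0.71 with processed signals and 0.65 on only the 4 arrays compared, all without a call, and 0.50 to 0.79 with an array left out. miR-298 kept its call in 12; it was 0.18 with median centring, −0.14 in Cy3 alone, −0.45 with processed signals, and −1.32 to −0.79 with an array left out. miR-296 was 0.057 with median centring and −0.32 to 0.060 with an array left out. In MI minus WT, miR-335 was 0.59 with the median of spots and 0.37 to 0.63 with an array left out; miR-298 was 0.10 with median centring; and miR-296 was −0.016 with median centring, −0.15 with loess on bright probes, −0.25 in Cy3 alone, −0.14 with processed signals and −0.071 to 0.31 with an array left out. In RQ minus MI, miR-335 was −0.0030 to 0.29 with an array left out, miR-296 was 0.073 with median centring, and miR-298 was 0.078 with median centring and 0.16 in Cy3 alone. With an array left out, 5 to 60 probes were called in RQ minus WT against 63, 6 to 63 in MI minus WT against 46, and 0 to 48 in RQ minus MI against 32; the 5 came without RQ replicate 1. MI minus WT had 27 calls on its own 4 arrays, and RQ minus MI had 10 with loess on bright probes and 14 with outlier spots kept. The causes of these moves were not tested.

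Replicate numbers are not known to pair the arrays: deviations of arrays with the same number correlated at 0.18 for WT and MI, 0.12 for WT and RQ and 0.04 for MI and RQ. A fit with the replicate number as a block changed no call of the 3 microRNAs (miR-335 in RQ minus WT 0.65, limma adjusted p = 0.0281; miR-298 −1.06, limma adjusted p = 0.0287) and called 59 probes in RQ minus WT, 39 in MI minus WT and 38 in RQ minus MI.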

Other observations

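The scanner marked 6 of the 24 spots of miR-296 as outliers and 0 of those of miR-298 and miR-335. They were the same spot position on each of the 6 arrays, spot 2, whose Cy3 signal was 1.24 to 2.02 times the mean of the other spots of its array. On RQ replicate 1 its Cy5 signal was 3.74 times that of the others. With all marked spots of the arrays kept, miR-296 went from −0.13 to −0.19 in RQ minus WT and from 0.12 to 0.06 in MI minus WT. In RQ minus WT miR-335 was then at 0.63 and miR-298 at −0.99.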
